A study of Mus musculus with 19 samples.

Results

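The genes described here encode the nuclear subunits of the oxidative phosphorylation machinery of mitochondria. They were chosen by symbol (Nduf followed by a, b, c, s or v and a digit, Sdha to Sdhd, Uqcr, Cyc1, Cox4 to Cox8 and Atp5) among probe sets with 1 gene symbol, which gave 82 of the 18193 genes on the array. Each gene was followed through its brightest probe set. By complex they are 35 genes of complex I, 4 of complex II, 9 of complex III, 17 of complex IV and 17 of complex V. The filter on dim probe sets kept 78 of the 82 genes, and Ndufb4, Cox6b2, Cox7b2 and Cox7c did not pass it.

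The RNA was from EDL muscle (extensor digitorum longus, a hind-limb muscle made mostly of fast fibres), with 1 Affymetrix array per sample. The 10 HSALR samples came from FVB mice of the transgenic HSALR line 20 b, which carry the human skeletal actin gene with a long CTG repeat as a muscle model of myotonic dystrophy. The 9 wild-type samples came from FVB mice without the transgene, and all mice were 19 weeks old. Whether every sample is a different animal is not stated, so each p-value measures no more than sample-to-sample spread, and that spread may be technical.

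Complex I (NADH dehydrogenase) and complex II (succinate dehydrogenase) pass electrons to coenzyme Q, complex III (the cytochrome bc1 complex) passes them on to cytochrome c, and complex IV (cytochrome c oxidase) gives them to oxygen. Complexes I, III and IV pump protons, and complex V (ATP synthase) uses the gradient to make ATP. Several small subunits of complex IV exist in a form found in striated muscle and a form found in most tissues, each from its own gene.

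Precision is limited by the number of arrays, and the signals of these genes lie near the top of the scale. The median over the 78 genes of the mean log2 signal was 12.67, against 8.07 over all 11533 genes tested. In 36 of the 78 genes, against 133 of the 11533, the mean lay within 1 log2 unit of 13.77, the lowest of the maxima of the 19 arrays, where a change can be compressed. HSALR replicates 9 and 10 stood apart: their rank correlation over probe sets was 0.978, while the highest value of any other sample with another lay between 0.953 and 0.969. Their summed signal of 12 macrophage and monocyte markers was 21251 and 24164, against at most 10359 in the other HSALR samples and between 4272 and 7268 in wild type. Results are therefore given with and without these 2 samples. They are also given for 2 scalings, the signals as deposited and the signals after quantile normalization, which gives every array the same distribution of values.

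Very few of the 78 genes passed the test between HSALR and wild type. With the signals as deposited, Cox6a1 rose and no gene fell at a false discovery rate of 0.05 (limma with Benjamini-Hochberg adjustment). Over all genes tested, 3.11% were higher and 2.31% lower in HSALR at that rate in this fit. An unadjusted p under 0.05 was reached by 2 higher and 2 lower genes of the 78, against 1594 higher and 862 lower of all 11533. After quantile normalization Cox6a1 and Cox8a rose and Ndufs7 fell at the false discovery rate. The background at that rate was then 6.96% higher and 8.51% lower, so the counts of 2 and 1 among 78 genes were below the background in both directions. An unadjusted p under 0.05 was then reached by 2 higher and 11 lower genes, against 1697 higher and 1847 lower of all 11533. In no gene of the 78 were the HSALR and wild-type samples fully separated under either scaling, against 0.728% of all genes as deposited and 1.99% after quantile normalization. When HSALR replicates 9 and 10 were left out, Cox6a1 was the gene called as deposited, with a background of 2.09% higher and 1.84% lower, and Cox6a1 and Cox8a were called after quantile normalization, with a background of 5.71% higher and 6.05% lower. In bulk muscle, fewer fibres of a type and less RNA per fibre cannot be told apart.

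**Figure D1:**
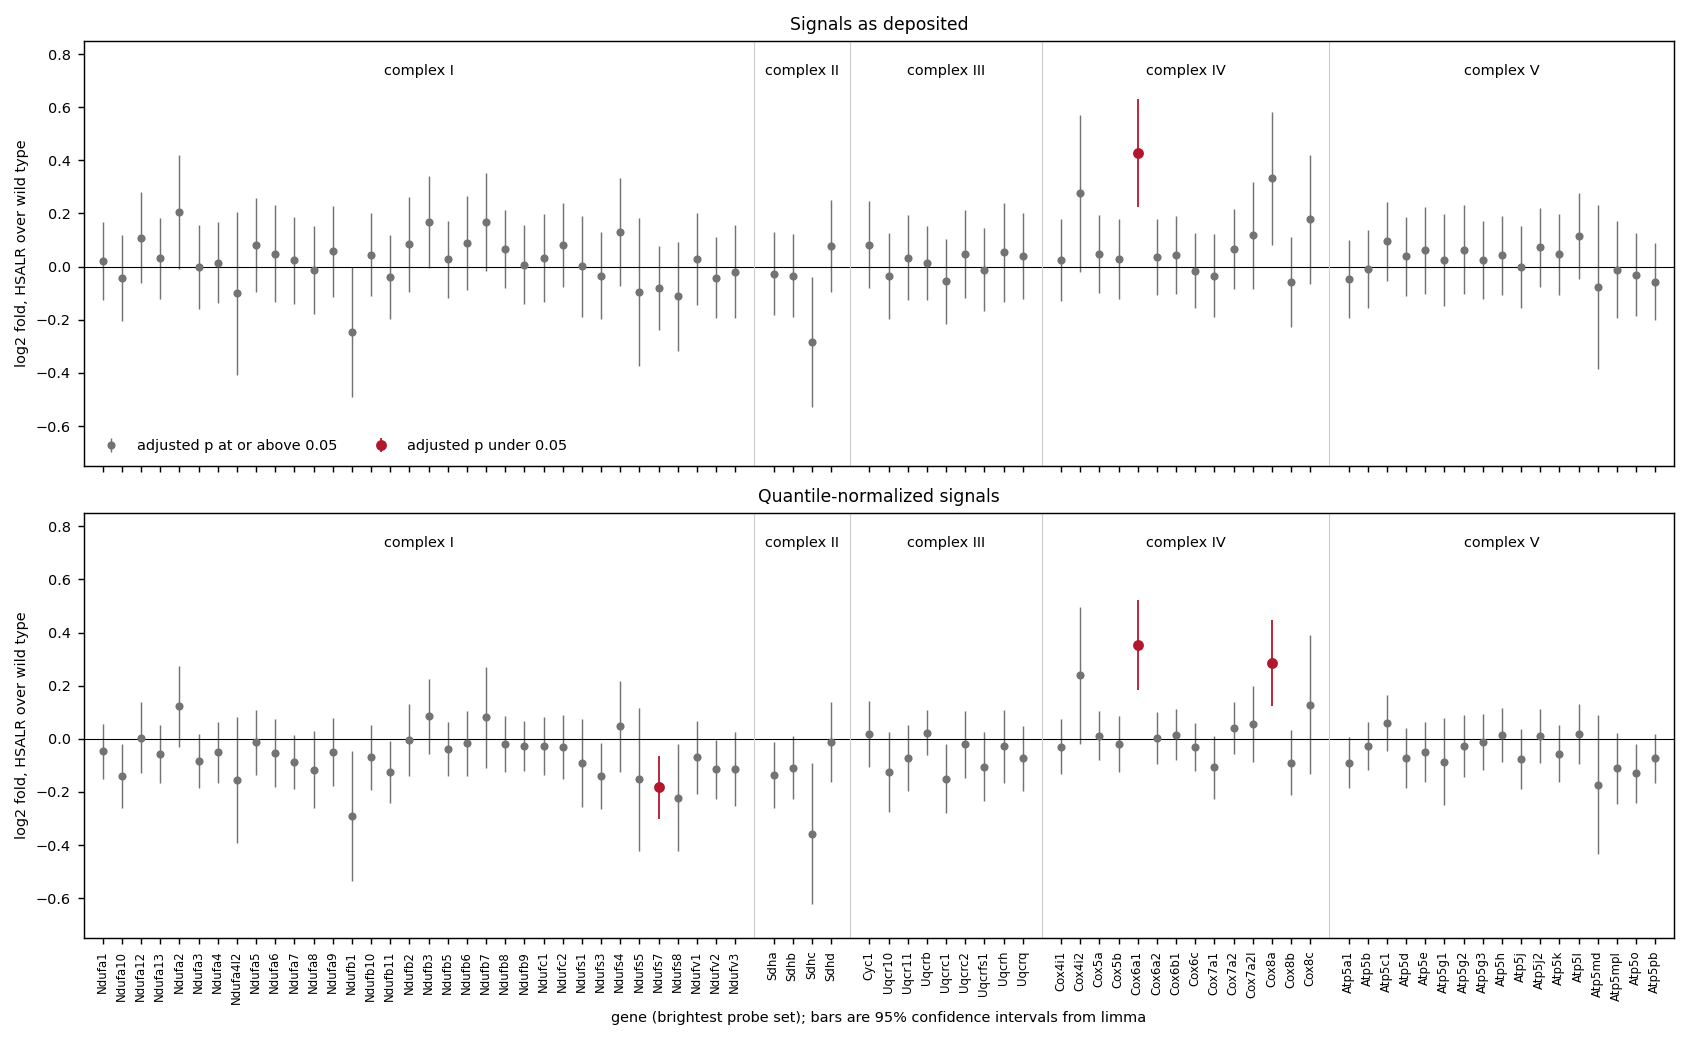
The log2 fold, HSALR over wild type, of each of the 78 genes by complex, with 95% confidence intervals from limma, as deposited (top) and after quantile normalization (bottom). Cox6a1 stands at 0.43 in the upper panel, and in the lower panel Cox6a1, Cox8a and Ndufs7 are marked, while most of the other points lie slightly above 0 in the upper panel and slightly below 0 in the lower one.

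Complex IV held both genes that rose. Cox6a1 encodes the widely expressed form of subunit VIa, a small nuclear subunit with a regulatory role. Its signal ranged from 3823 in the lowest through a median of 4765 to 5805 in the highest HSALR sample, against 2849, 3526 and 4116 in wild type. In 8 of the 10 HSALR samples it was above every wild-type sample, and replicates 9 and 10 were among those 8. The log2 fold was 0.43 ± 0.10 (SE), with a 95% interval from 0.23 to 0.63 and an adjusted p of 0.0107 in limma. After quantile normalization it was 0.35 ± 0.08 (adjusted p = 0.0060, limma), and 0.32 without HSALR replicates 9 and 10 (adjusted p = 0.0201, limma). A dimmer probe set of Cox6a1, of a type that can bind transcripts of related genes, rose by 0.60 ± 0.15 as deposited (adjusted p = 0.0191, limma) and by 0.55 after quantile normalization (adjusted p = 0.0034, limma).

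Cox8a encodes the widely expressed form of subunit VIII, a small membrane subunit of the complex. Its signal was 1041 at the lowest, 1376 at the median and 2129 at the highest in HSALR, against 957, 1115 and 1271 in wild type. The highest value belonged to HSALR replicate 10, and 6 of the 10 HSALR samples were above every wild-type sample. Its log2 fold was 0.33 ± 0.12 as deposited, which did not pass (adjusted p = 0.114, limma), and 0.29 ± 0.08 after quantile normalization, which did (adjusted p = 0.0179, limma). Without HSALR replicates 9 and 10 the normalized fold was 0.22 (adjusted p = 0.0440, limma). The second probe set of Cox8a, of a type that can bind related sequences, rose under both scalings, by 0.47 ± 0.11 as deposited (adjusted p = 0.0117, limma) and by 0.42 after quantile normalization (adjusted p = 0.0021, limma).

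The other 12 genes of complex IV that were tested gave no call under either scaling. Cox4i1, one form of the nuclear subunit IV that regulates the enzyme, had a median signal of 9133 in HSALR and 8811 in wild type, a log2 fold of 0.03 ± 0.07. Cox5a, subunit Va on the matrix side, had medians of 12287 in HSALR and 11954 in wild type and a fold of 0.05 ± 0.07. Cox4i2, the other form of subunit IV, known from lung, was dim here, between 47 and 135 in HSALR and between 48 and 111 in wild type. Its log2 fold of 0.28 ± 0.14 did not pass (adjusted p = 0.277, limma), and 3 of 10 HSALR samples were above every wild-type sample. After quantile normalization 7 of 10 were, and the fold of 0.24 ± 0.12 did not pass either (adjusted p = 0.204, limma). Cox8c, known from testis, had a fold of 0.18 ± 0.12 on dim signals between 315 and 549 in HSALR and between 262 and 455 in wild type.

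The striated muscle forms of the same subunits gave no call. Cox6a2, the striated muscle form of subunit VIa, had a lowest, median and highest signal of 9477, 10822 and 11478 in HSALR, against 9833, 10318 and 11669 in wild type. Cox8b, the striated muscle form of subunit VIII, had 8230, 9554 and 12814 in HSALR, against 9453, 10195 and 11205 in wild type. The groups overlapped for both genes. The log2 fold was 0.04 ± 0.07 for Cox6a2 and -0.06 ± 0.08 for Cox8b, and neither passed (adjusted p = 0.813 and 0.740, limma). For subunit VIIa, the striated muscle form Cox7a1 had a fold of -0.03 ± 0.08 and the widely expressed form Cox7a2 one of 0.07 ± 0.07, with adjusted p = 0.838 and 0.652 in limma. Signals of Cox6a2, Cox7a1, Cox7a2 and Cox8b lay within 1 log2 unit of the lowest array maximum.

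The overall brightness of an array largely cancels in a ratio of 2 of its probe sets, as long as neither signal is compressed. The muscle form over the widely expressed form was therefore compared between groups for the 3 pairs. Cox6a2, Cox7a1, Cox7a2 and Cox8b lay where a change can be compressed, so these ratios can still depend on brightness, which was not tested. Such a ratio shows unequal change of the probe sets and says nothing of which form is more abundant. The log2 ratio of Cox6a2 over Cox6a1 was 1.19 ± 0.22 in HSALR (SD, n = 10) and 1.58 ± 0.17 in wild type (SD, n = 9). It was lower in HSALR by 0.39 on the log2 scale, a difference of -0.39 (exact permutation p = 0.00026 over all 92378 splits, 2-sided, adjusted p = 0.00078 over the 3 pairs), and 9 of 10 HSALR samples lay below every wild-type sample. The log2 ratio of Cox8b over Cox8a was 2.80 ± 0.33 in HSALR and 3.19 ± 0.12 in wild type. Its difference was also -0.39 (exact permutation p = 0.0023, adjusted p = 0.0035), with 8 of 10 HSALR samples below every wild-type sample.

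The third pair had a smaller difference. The log2 ratio of Cox7a1 over Cox7a2 was -0.39 ± 0.10 in HSALR and -0.29 ± 0.07 in wild type, a difference of -0.10 (exact permutation p = 0.0225, adjusted p = 0.0225), and 4 of 10 HSALR samples lay below every wild-type sample. Leaving out wild-type replicate 9, where this ratio and that of Cox6a2 over Cox6a1 were highest, left the Cox7a1 ratio at -0.08 with an adjusted p of 0.0508 in the exact permutation test. After quantile normalization the differences were -0.35 for Cox6a2 over Cox6a1, -0.15 for Cox7a1 over Cox7a2 and -0.37 for Cox8b over Cox8a, each with an adjusted p of 0.0010 in the exact permutation test. Without HSALR replicates 9 and 10, in which the Cox8b ratio was lowest, the differences as deposited were -0.33, -0.11 and -0.27 in the same order, with adjusted p of 0.0026, 0.0201 and 0.0089 in the exact permutation test. With the dimmer probe set of each gene that had one, the differences were -0.64, -0.08 and -0.53 in that order.

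**Figure D2:**
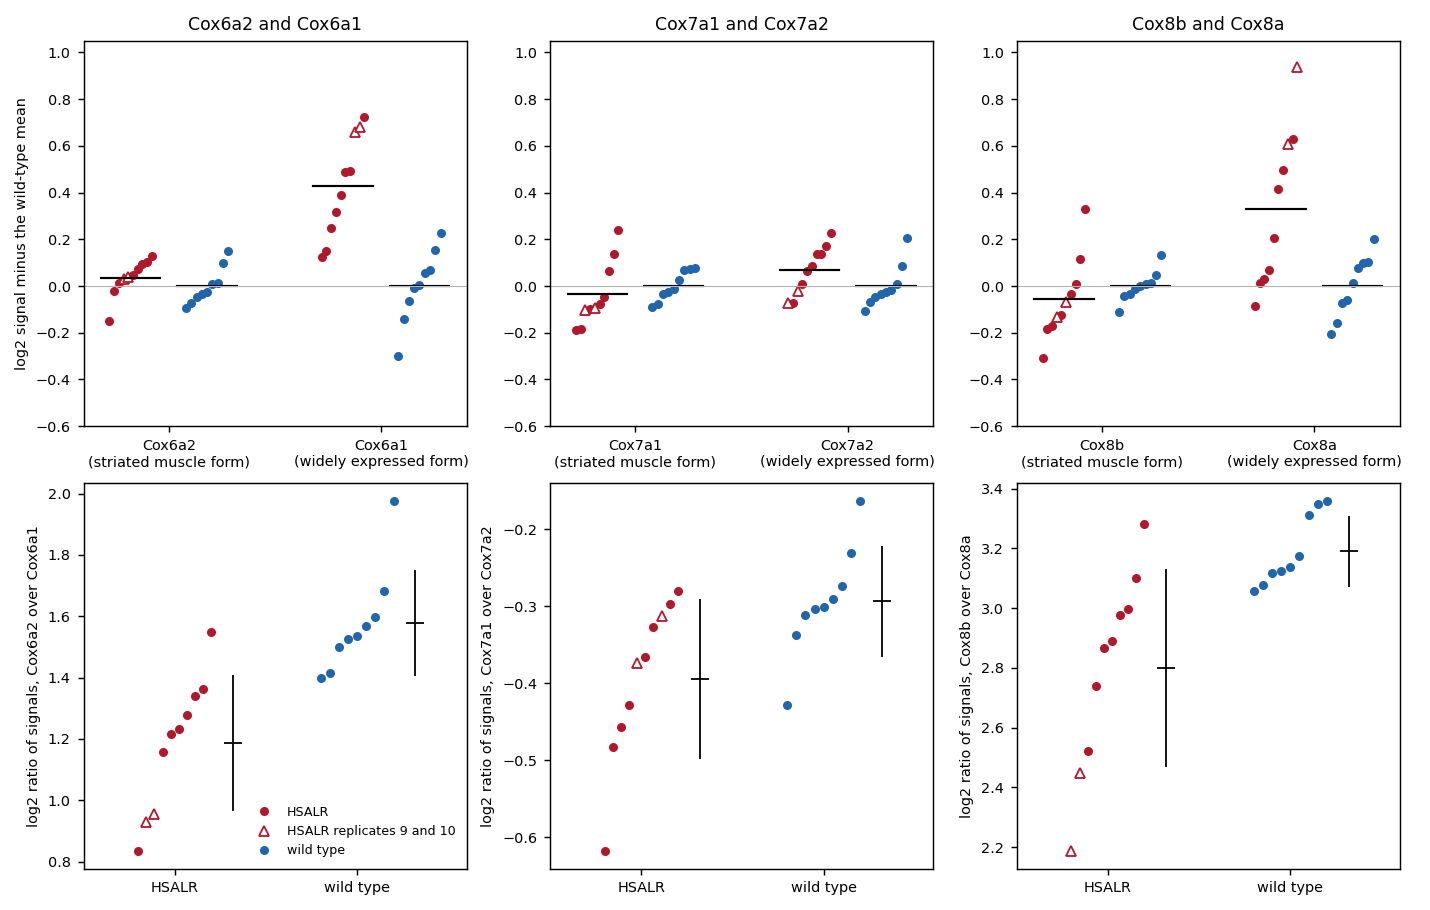
Top: log2 signal as deposited of the striated muscle and the widely expressed form of 3 complex IV subunits in each sample, minus the wild-type mean of the gene, with group means as bars. Bottom: log2 ratio of the 2 signals in each sample, with the mean and SD beside the points. Cox6a1 and Cox8a stand higher in most HSALR samples while Cox6a2 and Cox8b overlap wild type, and 9 of 10 HSALR ratios of Cox6a2 over Cox6a1 lie below every wild-type ratio.

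Promoters are shown so that the genes that rose can be read beside muscle forms of the complex. Sequences are from RefSeq on build GRCm38.p6, run from 250 bases before to 50 bases after the gene's start, and read 5′ to 3′ on the gene's strand. Cox6a1 lies at chr5:115348909-115349208 (minus strand), Cox8a at chr19:7217567-7217866 (minus), Cox7a1 at chr7:30183921-30184220 (plus) and Cox8b at chr7:140900397-140900696 (minus). Capitals mark matches, on either strand, to the core of the NRF-1 site (GCGCATGC), the ETS site bound by GABP (CCGGAAG) and the core of the site of ERR (AAGGTCA), which are regulators of mitochondrial genes.
Cox6a1: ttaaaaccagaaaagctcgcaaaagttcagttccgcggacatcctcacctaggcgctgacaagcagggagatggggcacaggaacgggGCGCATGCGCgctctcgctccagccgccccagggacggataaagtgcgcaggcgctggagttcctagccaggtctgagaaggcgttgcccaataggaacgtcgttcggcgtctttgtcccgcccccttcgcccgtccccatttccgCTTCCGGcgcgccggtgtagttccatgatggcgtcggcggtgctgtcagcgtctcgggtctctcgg
Cox8a: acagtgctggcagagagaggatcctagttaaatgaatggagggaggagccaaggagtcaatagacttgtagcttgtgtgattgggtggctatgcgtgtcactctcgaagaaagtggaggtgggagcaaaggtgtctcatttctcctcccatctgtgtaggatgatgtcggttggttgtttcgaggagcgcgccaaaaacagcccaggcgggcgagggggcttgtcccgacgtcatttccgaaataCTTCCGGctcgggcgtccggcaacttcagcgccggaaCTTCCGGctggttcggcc
Cox7a1: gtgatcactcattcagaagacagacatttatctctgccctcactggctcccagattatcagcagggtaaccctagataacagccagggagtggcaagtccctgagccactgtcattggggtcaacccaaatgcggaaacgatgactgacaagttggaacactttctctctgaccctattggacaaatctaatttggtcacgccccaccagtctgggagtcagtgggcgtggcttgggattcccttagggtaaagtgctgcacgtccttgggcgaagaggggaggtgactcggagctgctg
Cox8b: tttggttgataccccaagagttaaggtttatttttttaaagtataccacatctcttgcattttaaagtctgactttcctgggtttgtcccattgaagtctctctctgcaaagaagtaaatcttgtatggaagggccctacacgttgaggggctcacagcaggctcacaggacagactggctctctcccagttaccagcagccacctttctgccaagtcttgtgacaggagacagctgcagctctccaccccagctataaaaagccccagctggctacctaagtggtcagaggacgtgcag

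In the Cox6a1 promoter the NRF-1 core matched on both strands in overlapping positions, beginning 162 and 160 bases before the start, and an ETS match on the opposite strand began 16 bases before it. Cox8a had 2 ETS matches on the opposite strand, and none of the 3 motifs matched in the windows of Cox7a1, Cox7a2 and Cox8b. The Cox6a1 window held 32 CpG dinucleotides and that of Cox8a 19, against 7 for Cox7a1 and 2 for Cox8b, the muscle forms. That of Cox7a2, a widely expressed form without a call, held 20. The median was 19 over the windows of the subunit genes and 7 over all windows. No window was available for Cox6a2, the muscle form beside Cox6a1. Among all the subunit genes, 66 of 82 had a window in the table, with 71 windows. The NRF-1 core matched in 12.7% of the 71, against 2.71% of all 32851 windows. The ETS site matched in 23.9%, against 8.86%, and the ERR core in 11.3%, against 4.72%. The median GC content was 58.3% in the 71 windows and 52.7% in all. A match is a description of letters, not a bound site or a cause, and these shares were not compared by a test.

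Complex I held the gene that fell. Ndufs7 encodes a core subunit that carries an iron-sulfur cluster close to the site where coenzyme Q is reduced. Its signal was 5017, 5667 and 6787 at the lowest, median and highest in HSALR, against 5438, 6052 and 6876 in wild type, and the groups overlapped. The log2 fold was -0.08 ± 0.08 as deposited (adjusted p = 0.591, limma) and -0.18 ± 0.06 after quantile normalization (adjusted p = 0.0334, limma). In the normalized values 6 of 10 HSALR samples were below every wild-type sample, and HSALR replicate 10 was the lowest. The normalized fold was -0.14 without HSALR replicates 9 and 10 and did not pass (adjusted p = 0.0886, limma). Leaving out each of the 19 samples in turn kept the call of Ndufs7 in 10 cases, and its dimmer probe set did not pass (normalized adjusted p = 0.352, limma).

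The core subunits that take up electrons from NADH had small folds. Ndufv1, which binds NADH, had a median signal of 4746 in HSALR and 4713 in wild type, a log2 fold of 0.03 ± 0.08. Ndufs1, the largest core subunit, had medians of 4354 in HSALR and 4488 in wild type and a fold of 0.00 ± 0.09. Among the accessory subunits, which surround the core, the folds as deposited were between -0.25 for Ndufb1 and 0.20 for Ndufa2. Ndufb1 was dim, 133 to 188 in HSALR and 122 to 251 in wild type, and did not pass (adjusted p = 0.236, limma). Ndufa2 had 3169 to 6008 in HSALR and 3238 to 4371 in wild type and did not pass either (adjusted p = 0.265, limma). Ndufb3 and Ndufb7, accessory subunits of the membrane arm, had folds of 0.17 ± 0.08 and 0.17 ± 0.09, and the core subunit Ndufs3 one of -0.04 ± 0.08, none of which passed. Ndufa4 is counted here by its symbol, although its protein is now known as a subunit of complex IV, and had a fold of 0.01 ± 0.07. Of the 34 genes of complex I tested, 22 were higher as deposited with a median log2 fold of 0.03, and 5 after quantile normalization with a median of -0.05.

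Complex II has 4 subunits, the flavoprotein Sdha, the iron-sulfur protein Sdhb and the membrane anchors Sdhc and Sdhd. Sdhc had a lowest, median and highest signal of 1348, 1808 and 2252 in HSALR, against 1647, 1989 and 2952 in wild type. In 4 of 10 HSALR samples it was below every wild-type sample, and HSALR replicate 9 was the lowest of all. Its log2 fold of -0.28 ± 0.12 was the largest decrease among the 78 genes as deposited but did not pass (adjusted p = 0.175, limma), nor did the normalized fold of -0.36 ± 0.13 (adjusted p = 0.0634, limma). The other probe set of Sdhc had a fold of -0.10 ± 0.10. Sdha had median signals of 5381 in HSALR and 5703 in wild type and a fold of -0.03 ± 0.08. Sdhb had medians of 7876 in HSALR and 8193 in wild type, also with a fold of -0.03 ± 0.08, and Sdhd had one of 0.08 ± 0.08. Over the 4 genes the median log2 fold was -0.03 as deposited and -0.12 after quantile normalization.

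In complex III no gene passed under either scaling. Cyc1, the heme-carrying cytochrome c1, had median signals of 9046 in HSALR and 8596 in wild type and a log2 fold of 0.08 ± 0.08. Uqcrfs1, the Rieske iron-sulfur protein, had medians of 7283 in HSALR and 7552 in wild type and a fold of -0.01 ± 0.08. Uqcrc1, a core protein of the matrix side, had medians of 7180 in HSALR and 7406 in wild type. Its fold was -0.06 ± 0.08 as deposited and -0.15 ± 0.06 after quantile normalization (adjusted p = 0.108, limma). The small subunits Uqcr10, Uqcrh and Uqcrq had folds of -0.04 ± 0.08, 0.05 ± 0.09 and 0.04 ± 0.08, and the core protein Uqcrc2 one of 0.05 ± 0.08. Folds of the 9 genes as deposited lay between -0.06 and 0.08, with a median of 0.03. Normalized, the median was -0.07.

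In complex V no gene passed either. Atp5b, the catalytic beta subunit, had median signals of 10992 in HSALR and 11047 in wild type and a log2 fold of -0.01 ± 0.07. Atp5a1, the alpha subunit, had medians of 9789 in HSALR and 9934 in wild type and a fold of -0.05 ± 0.07. Atp5c1, the gamma subunit of the central stalk, had medians of 12761 in HSALR and 11612 in wild type and a fold of 0.09 ± 0.07. Atp5o, a subunit of the stator stalk, had medians of 6897 in HSALR and 7335 in wild type, with a fold of -0.03 ± 0.08 as deposited and -0.13 ± 0.05 normalized. Atp5pb, also of the stator stalk, had a fold of -0.06 ± 0.07. The small membrane subunits Atp5l, Atp5j2 and Atp5mpl had folds of 0.11 ± 0.08, 0.07 ± 0.07 and -0.01 ± 0.09. The 17 genes had folds between -0.08 and 0.11 as deposited, with medians of 0.03 as deposited and -0.06 normalized. Each of these 2 complexes had called counts of 0 in limma under both scalings. At an unadjusted p under 0.05 there was no gene of either complex as deposited and 1 lower gene of each after normalization.

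The direction of the whole group depended on the scaling. As deposited, 50 of the 78 genes were higher in HSALR, against 6967 of all 11533 genes tested. The median log2 fold was 0.03, against 0.05 over all genes. After quantile normalization 20 of the 78 were higher, against 5609 of the 11533, with a median of -0.05 against -0.01 over all genes. Without HSALR replicates 9 and 10 the normalized median was -0.01, against 0.01 over all genes, with 33 of 78 higher against 5983 of 11533. Complex IV was the complex whose median stayed above 0 in these fits, at 0.04 as deposited, 0.01 normalized and 0.03 normalized without the 2 samples, while centring each array on its median left it at -0.0035 with 6 of 14 genes higher. The difference between complexes was not tested.

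The samples show where the normalized decrease lay. Averaged over its genes and set against the wild-type mean, complex I was at -0.26 in both HSALR replicates 9 and 10 on the normalized log2 scale. Complex II was at -0.43 and -0.44 in replicates 9 and 10, complex III at -0.23 and -0.24, and complex V at -0.15 and -0.22. Complex IV was at 0.00 and 0.02 in the same samples, a mean over genes that lay on opposite sides of wild type. In both samples Cox6a1, Cox8a and Cox4i2 were above every wild-type sample, and Cox4i1, Cox7a1 and Cox8b were below every one. HSALR replicate 3 was the next lowest for complexes I, III and V, at -0.15, -0.15 and -0.11. For complex II, HSALR replicate 8 at -0.18 and replicate 3 at -0.17 came next. HSALR replicate 5 was the highest of the group, between 0.06 for complex V and 0.14 for complex IV. As deposited, replicates 9 and 10 were within the range of the other HSALR samples in all 5 complexes, and HSALR replicate 8 had the highest mean of each complex, 0.26 over all 78 genes.

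**Figure D3:**
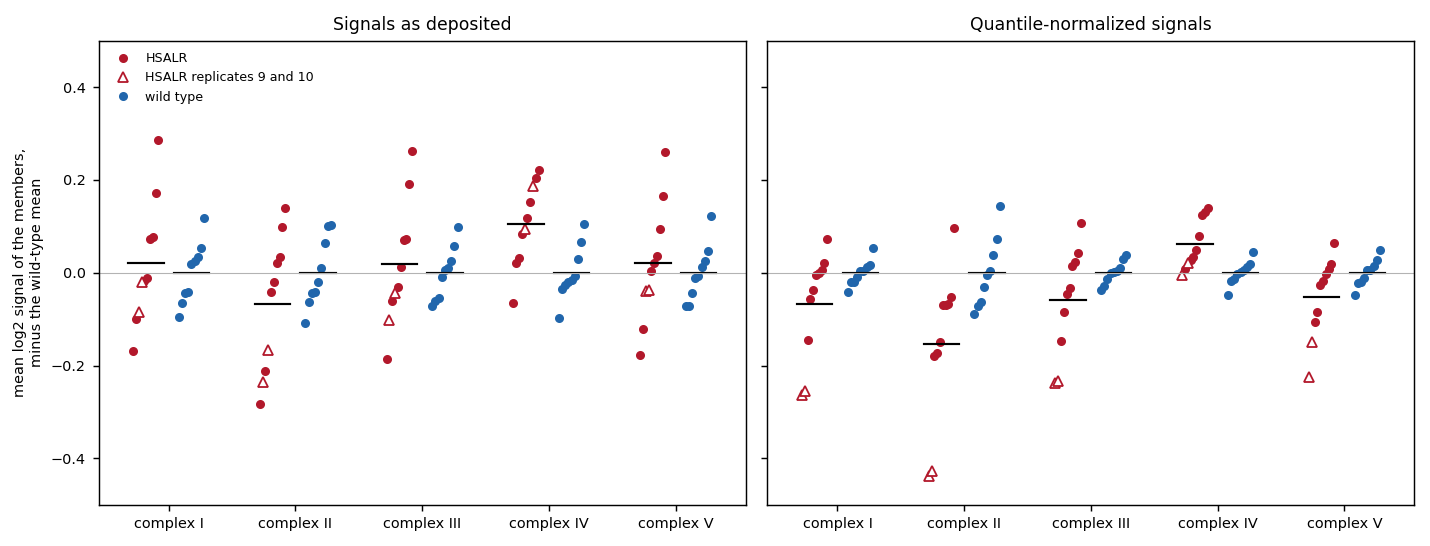
Mean log2 signal of the tested genes of each complex in each sample, minus the wild-type mean, as deposited (left) and after quantile normalization (right), with group means as bars. After normalization the triangles, HSALR replicates 9 and 10, are the lowest HSALR samples for complexes I, II, III and V and lie at 0.00 and 0.02 for complex IV.

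The HSALR samples also varied more among themselves. The median over the 78 genes of the SD of log2 signals was 0.15 in HSALR and 0.09 in wild type as deposited, with the larger SD in HSALR for 68 genes (87.2%), against 83.7% of all genes. After quantile normalization the medians were 0.13 in HSALR and 0.06 in wild type, with the larger SD in HSALR for 72 genes (92.3%), against 74.2% of all genes. Leaving out HSALR replicates 9 and 10 gave a normalized median of 0.09 in HSALR, with 60 of 78 genes (76.9%) more variable, against 64.1% of all genes.

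**Figure D4:**
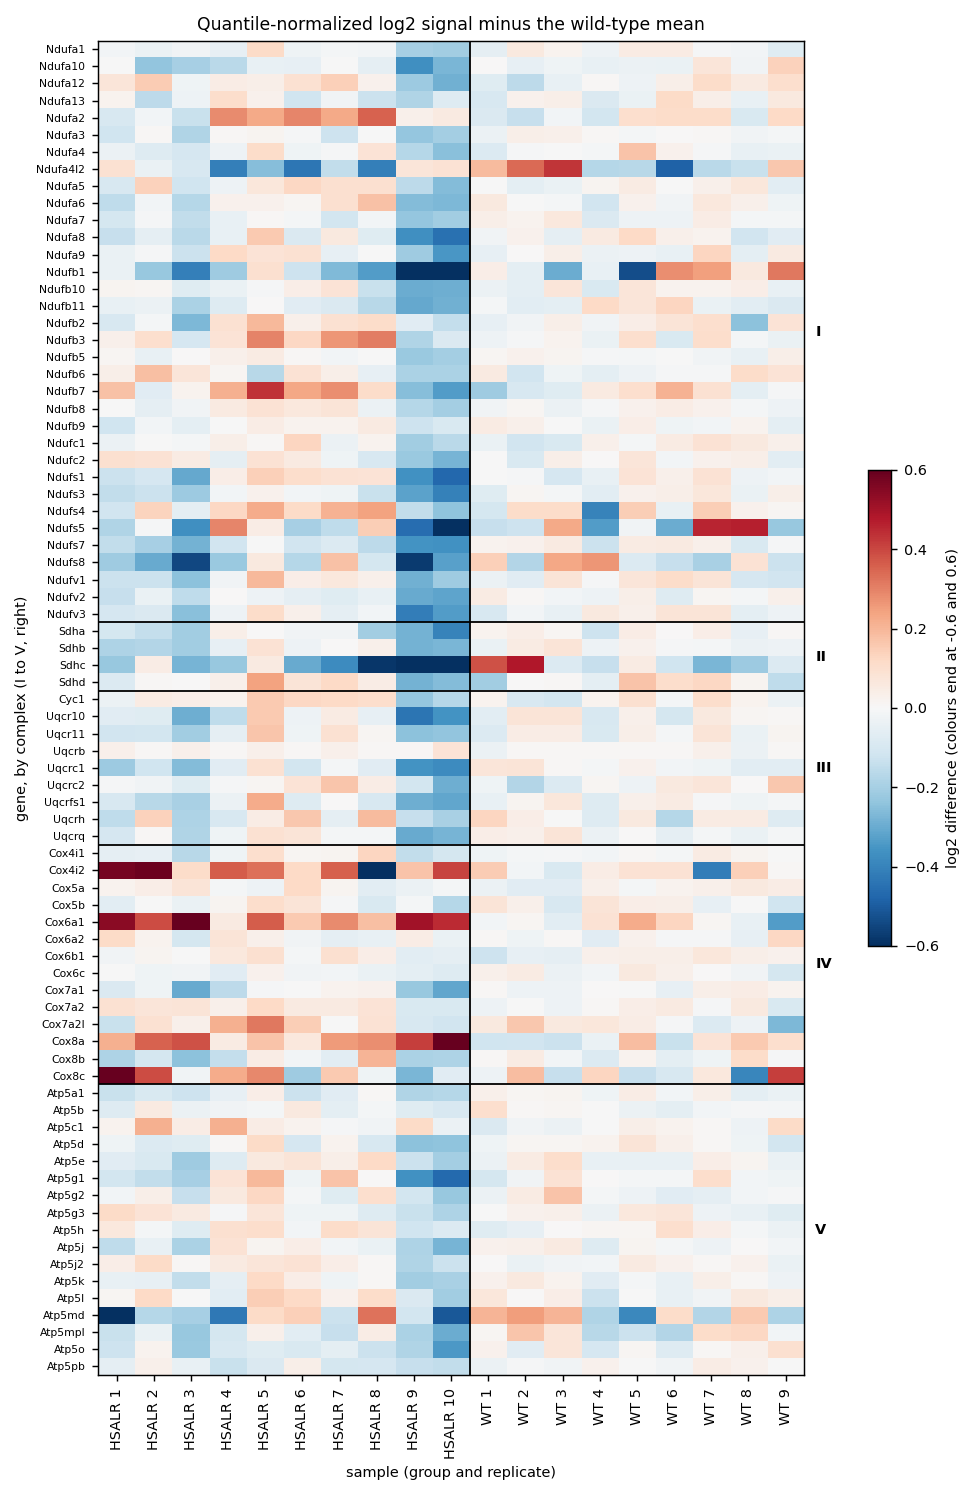
Quantile-normalized log2 signal of each of the 78 genes (rows, grouped by complex) in each sample (columns), minus the wild-type mean of the gene. The columns of HSALR replicates 9 and 10 are blue in most rows of complexes I, II, III and V, and the rows of Cox6a1 and Cox8a are red in most HSALR columns.

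The summed signals of macrophage and of fibroblast markers were highest in HSALR replicates 9 and 10. Of 11 macrophage and monocyte markers tested, Cd68 and Lgals3 rose as deposited, and Ctss and Tyrobp also did after quantile normalization, while Itgam was below the filter. Over all genes tested, 3.11% were higher in HSALR as deposited and 6.96% after quantile normalization. The median log2 fold of the 11 was 0.66 as deposited and 0.32 normalized without HSALR replicates 9 and 10. The summed signal of 8 fibroblast markers was 56181 in HSALR replicate 9 and 58663 in replicate 10. It was at most 36820 in the other HSALR samples and 19242 to 32260 in wild type. Of these 8 markers, 1 passed under each scaling, Pdgfra, which rose. Of 8 fat markers on the array 4 were tested, of which Adipoq and Retn rose, and Lep, Cidec, Ucp1 and Cidea were below the filter. The list summed to between 5367 and 9110 in HSALR and between 5664 and 7183 in wild type. Its highest HSALR sum was in a sample other than replicates 9 and 10. None of the 8 endothelial, 3 heart muscle and 4 nerve and Schwann cell markers tested passed in limma under either scaling. The summed signal of the nerve and Schwann cell markers nevertheless reached 4976 in HSALR, and at most 2543 in HSALR without replicates 9 and 10. It was 1543 to 2906 in wild type. At an unadjusted p under 0.05, 1 heart marker was lower as deposited, and 1 heart marker and 1 nerve marker were lower after normalization. The part of these cells in the values of the subunit genes was not tested. The fits without HSALR replicates 9 and 10 are no such test, because markers of these cells still passed there. In the normalized fit 3 macrophage, 1 fibroblast and 2 fat markers were higher, with 5.71% of all genes higher.

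Fibre type bears on these genes because slow fibres hold more mitochondria than glycolytic fast fibres. The 10 fast fibre markers, such as Myh4 and Tnnt3, had a summed signal of 114051 to 136894 in HSALR and 122806 to 141293 in wild type. None of the 10 passed as deposited (limma, 1 lower at an unadjusted p under 0.05). Actn3 and Atp2a1 fell after quantile normalization by 0.23 and 0.16 on the log2 scale. These 2 are 20% of the list, against 8.51% of all genes lower in that fit. The 10 slow fibre markers summed to between 4595 and 20574 in HSALR and between 4285 and 34627 in wild type. Their median log2 fold was -0.56 as deposited, -0.62 normalized and -0.23 normalized without HSALR replicates 9 and 10. None of them passed in limma, with 0 at an unadjusted p under 0.05. Their part in the values of the subunit genes was not tested.

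Other probe sets gave a second readout of the same genes. Of the 78 genes, 44 had more than 1 probe set past the filter, with 66 probe sets beside the brightest. The sign of the fold was that of the brightest in 48 of the 66 as deposited and the opposite in 18. Those of Cox6a1 and Cox8a passed as deposited, and no other did. After normalization a dimmer probe set of Ndufa10, an accessory subunit of complex I, also fell, by 0.37 on the log2 scale (adjusted p = 0.0363, limma). As deposited, limma's diffSplice found no gene of the 44 whose probe sets differed in their fold, with 91 called among 4782 genes. After normalization it called Ndufa7, an accessory subunit of complex I (adjusted p = 0.0233, limma's diffSplice), with 363 called among the 4782. The dimmest of the 5 probe sets of Ndufa7 had a normalized log2 fold of 0.21 against -0.09 for the brightest, and 3 of the 5, the dimmest among them, are of a design that can bind related sequences.

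Some of the genes that build and serve the complexes were called, all as lower in HSALR in the fits with the 19 samples. The shares over all genes tested, 2.31% lower as deposited and 8.51% lower after quantile normalization, are the background for the counts that follow. For the normalized fit without HSALR replicates 9 and 10 the shares are 5.71% higher and 6.05% lower. Of 16 assembly factors of complex I, Ndufaf6 fell as deposited by 0.43 on the log2 scale (adjusted p = 0.0229, limma), and Tmem126b also fell after quantile normalization by 0.41 (adjusted p = 0.0265, limma). These are 6.25% of the list as deposited and 12.5% after normalization, and its median log2 fold was -0.12 as deposited and -0.18 normalized. Of 20 assembly factors of complex IV, Fastkd3, a protein of mitochondrial RNA metabolism, fell by 0.33 (adjusted p = 0.0343, limma), and it fell under normalization by 0.38. Of 5 assembly factors of complex III tested, Uqcc1 fell after normalization by 0.41 (adjusted p = 0.0180, limma). Neither the 4 assembly factors of complex II nor the 4 of complex V held a call in limma under the 2 scalings. At an unadjusted p under 0.05, 1 of complex II was higher as deposited and 2 were lower normalized, with 0 of complex V. Ndufaf6, Uqcc1 and Fastkd3 also passed in the normalized fit without HSALR replicates 9 and 10, and Tmem126b did not. In that fit Sdhaf1 of complex II assembly and Cox19 of complex IV assembly rose, by 0.25 and 0.24.

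Among 15 regulators of mitochondrial genes none passed as deposited in limma, although 3 higher and 1 lower gene had an unadjusted p under 0.05. Ppargc1a, the coactivator PGC-1 alpha, had a log2 fold of 0.10 ± 0.18, Nrf1 one of 0.12 ± 0.12 and Esrra, the receptor ERR alpha, one of -0.10 ± 0.10. Tfb2m, a factor for transcription of mitochondrial DNA, fell after normalization by 0.42 (adjusted p = 0.0059, limma), and also without HSALR replicates 9 and 10 (adjusted p = 0.0207, limma). Pprc1, a coactivator related to PGC-1, fell after normalization by 0.29 (adjusted p = 0.0259, limma), but not without the 2 samples (adjusted p = 0.0732, limma). Tfb2m and Pprc1 make up 13.3% of the 15 regulators, whose median log2 fold was 0.09 as deposited and 0.04 normalized. In the normalized fit without HSALR replicates 9 and 10, Ppargc1b, the coactivator PGC-1 beta, rose by 0.34 (adjusted p = 0.0231, limma). With the 2 samples its fold was 0.21 (adjusted p = 0.218, limma). It was the 1 higher gene of the 15, where 5.71% of all genes were higher without the 2 samples.

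Of 17 genes of the tricarboxylic acid cycle, Ogdh, a component of the oxoglutarate dehydrogenase complex, fell after normalization by 0.23 (adjusted p = 0.0301, limma), and none passed as deposited, with 0 at an unadjusted p under 0.05. Citrate synthase (Cs) had a fold of 0.00 ± 0.08. None of 15 genes for electron carriers and coenzyme Q synthesis passed in limma, with 6 lower at an unadjusted p under 0.05 after normalization and 0 as deposited, and cytochrome c (Cycs) had a fold of -0.02 ± 0.07. Of 76 mitochondrial ribosomal proteins none passed as deposited, although 2 higher and 4 lower genes had an unadjusted p under 0.05. Mrps24, Mrps15 and Mrpl50 fell after normalization, by 0.36, 0.34 and 0.29. The 3 are 3.95% of the list, against 8.51% of all genes lower in that fit. Without HSALR replicates 9 and 10, Mrps34, Mrps12, Mrps35 and Mrpl44 rose and Mrps24 fell in the normalized fit. That is 4 higher and 1 lower of 76, where 5.71% of all genes were higher and 6.05% lower. The median fold of the 76 was 0.00 as deposited and -0.06 normalized, against 0.03 and -0.05 for the 78 subunit genes. Of the 13 subunits encoded in mitochondrial DNA, ND5 of complex I was analysed here, with a fold of -0.01 ± 0.07 as deposited, and the other 12 were not analysed here.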

How the data were processed

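Biotin-labelled cRNA of 10 HSALR and 9 wild-type EDL samples was hybridised to Affymetrix arrays of 1 colour, per the labels' protocols. The table deposited by the authors holds a linear signal intensity for each of 45101 probe sets per array. The submitters' processing notes name GCOS 1.4. How the signal was computed and scaled, and the genome build, is not given in the sources used here. Unequal array scaling can shift every gene of an array.

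Values were used as log2(value + 16), so folds are on that scale. Without the 64 control probe sets, the 22519 with a mean at or above the median (6.09) were tested. Gene symbols came from the platform annotation, updated through the Entrez identifier for 34741 of 34945 probe sets with 1 symbol. HSALR and wild type were compared on the whole table with limma 3.58.1 in R 4.3.3 (lmFit, eBayes, 2-sided, Benjamini-Hochberg, false discovery rate 0.05), as deposited and after quantile normalization. Isoform ratios were compared by exact permutation. Fits were tested on simulated data. Pseudocounts, filters, scalings, variance models, array weights, the replicate block and left-out samples were the alternatives. For counts of all genes each gene entered through its brightest probe set. No p-value was computed for a list.

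The genes, lists and pairs were chosen with earlier results of these data known. Genes named are those past the threshold in either fit, the 4 of each complex with the smallest p, the isoform pairs, set core subunits, those below the filter, those whose probe sets differ, and up to 3 per other list. Ndufa4, Ndufa10's dimmer probe set, genes called without HSALR replicates 9 and 10, uncalled genes of other lists, and markers were named outside this rule, after their values were seen. The main fits did not pair samples by replicate number (see the closing section). Figures used matplotlib 3.10.9 and Python 3.11.15.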

Additional observations from a re-analysis of the deposited data

Results flagged for a closer look

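Of 102 groups of samples examined for a sample far from its nearest neighbour by Dixon's criterion, 4 held one, and chance alone gives about 1 in 20 groups. In wild-type replicate 6, 3 subunit genes had their highest log2 signal as deposited at a distance from the other wild-type samples. Ndufb7 of complex I was at 12.24, with the next sample at 11.98. Sdhb of complex II was at 13.12, with the next at 13.02. Uqcrfs1 of complex III was at 13.06, with the next at 12.91. In wild-type replicate 9 the log2 ratio of Cox6a2 over Cox6a1 was 1.98, with the next wild-type sample at 1.68, and Cox6a1 had its lowest wild-type signal there.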

How the results depend on the processing

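The count of subunit genes called as deposited (1) became 3 with array weights, 2 when any probe set of a gene was taken, 3 after quantile normalization, 2 after quantile normalization without HSALR replicates 9 and 10, and 0 with the replicate number as a block. Leaving out 1 sample gave 1 to 2. The normalized count (3) became 5 with a trended and robust variance (Atp5o and Uqcrc1 also fell) and 1 with the replicate block, and ranged from 2 to 5 when 1 sample was left out, with 5 without HSALR replicate 5 (Sdhc and Uqcrc1 also fell). The normalized call of Ndufs7 was kept in 10 of 19 such fits and Cox8a's in 19. The count of genes whose probe sets differ (0) became 1 after quantile normalization, 2 when HSALR replicates 9 and 10 were also left out and 1 without a filter, and stayed at 0 for each left-out sample. The median log2 fold of complex III moved to -0.073 after quantile normalization.

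The isoform ratio differences ranged over left-out samples from -0.43 to -0.34 (Cox6a2 over Cox6a1), -0.12 to -0.076 (Cox7a1 over Cox7a2, where leaving out wild-type replicate 9 gave adjusted p = 0.0508 in the exact permutation test) and -0.44 to -0.32 (Cox8b over Cox8a). With pairs formed by replicate number as a block they were -0.36, -0.10 and -0.32 (exact permutation over sign changes, adjusted p = 0.0293, 0.0430 and 0.0293). Whether equal numbers mark paired samples is not stated. Same-numbered deviations correlated over 0.1 in 3 of 9 cases as deposited and 2 of 9 normalized. Of 9 HSALR samples, 1 correlated best, normalized, with the wild-type sample of its own number. These correlations cannot show that the samples are unpaired, since a pairing can leave little trace in them. Under the block Cox6a1 had an adjusted p of 0.0884 as deposited (limma). Where no value above shows it, the cause was not tested. Among 38 named genes, quantile normalization turned the sign of 7 that had no call and brought 2 past the threshold. The ratios of dimmer probe sets and the normalized ratios without HSALR replicates 9 and 10 were chosen after seeing the data. Signals near the top of the scale limit what can be seen of the brightest genes.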
